A study of Mus musculus with 6 samples.

Results

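The genes described here encode the subunits of kinesin and cytoplasmic dynein, the motor proteins that walk along microtubules, and of dynactin, the partner complex of dynein. They were taken by symbol: every listed gene whose symbol begins with *Kif* or *Klc* followed by a digit, or with *Dync*, *Dynl* or *Dctn*. Of the 13003 genes listed for mouse heart, 50 met the rule, and all 50 were abundant enough to be tested. By textbook role, 37 of them were transport motors, 8 were mitotic kinesins and 5 were kinesins of other kinds.

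RNA-seq libraries came from the hearts of 3 WT mice (replicates 1, 3 and 4) and 3 Dst-b mutant mice (replicates 1, 2 and 3), sampled as ventricular myocardium at 14 to 19 months of age on the C57BL/6J background. The mutants were homozygous for E2610Ter, a germline nonsense allele in an exon used only by the Dst-b isoform of *Dst*, and were bred from heterozygous parents. *Dst* encodes dystonin, a linker between cytoskeletal filaments, and Dst-b is its isoform of striated muscle. The allele was carried by every cell of the animal, 3 lines carrying it were made in the study, and neither the line nor the sex behind each library is stated. The study used mice of both sexes. From its RNA-seq results it left out *Xist* and *Tsix*, whose differences it put down to extreme values in a single individual.

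Kinesins and dynein burn ATP to step along microtubules in opposite directions. Most kinesins walk towards the plus end and carry mitochondria, vesicles, RNA granules and signalling complexes outwards, while cytoplasmic dynein, switched on by dynactin and by adaptor proteins, hauls cargo back towards the nucleus. A second set of kinesins is known mainly from dividing cells, pushing spindle poles apart, holding chromosomes in place and closing the cleavage furrow. Most cardiomyocytes of the adult heart no longer divide, but they keep a dense microtubule network, along which motors deliver ion channels, junction proteins, mitochondria and messenger RNA.

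The sequence around the start sites was compared between transport and mitotic motors. A RefSeq promoter window (GRCm38.p6), running from 250 bases before to 50 bases after the start site, was found for 37 of the 50 genes, some with more than 1. Each window was searched on both strands for TTTGAA, the core of the cell cycle genes homology region through which the MuvB complexes time mitotic genes, and for CCAAT, the box bound by NF-Y. TTTGAA was present in 6 of 7 mitotic windows (85.7%) and in 2 of 30 transport windows (6.67%), and in 1 of 6 windows of the other kinesins (16.7%, *Kif26b*, 9 bases before the start), against 17.9% of all 32851 promoter windows of this length. CCAAT was present in 4 of the 7 mitotic windows (57.1%), in 12 of the 30 transport windows (40.0%), in 2 of the 6 others (33.3%) and in 37.4% of all windows. The stretches below are shown because each of the 6 mitotic ones holds its gene's TTTGAA match nearest the start site. Capitals mark each match, and a match on the opposite strand reads TTCAAA or ATTGG. *Kif11* and *Kif15* are shown by the 80 bases before their start sites, at chr19:37376302-37376381 and chr9:122951001-122951080, both on the plus strand. *Kif22* (chr7:127042420-127042449, minus strand), *Kif4* (chrX:100626072-100626101, plus strand), *Kif20b* (chr19:34922353-34922382, plus strand) and *Kif23* (chr9:61946780-61946809, minus strand) are shown by 30 bases around the match. *Dync1h1*, the dynein heavy chain, is the transport gene set beside them, by the 80 bases before its start site at chr12:110601315-110601394 on the plus strand.
Kif11: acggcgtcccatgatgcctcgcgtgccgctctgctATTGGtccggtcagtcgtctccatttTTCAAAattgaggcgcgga
Kif15: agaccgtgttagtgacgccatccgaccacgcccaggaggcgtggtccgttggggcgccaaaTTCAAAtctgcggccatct
Kif22: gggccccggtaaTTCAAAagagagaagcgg
Kif4: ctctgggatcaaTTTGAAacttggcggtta
Kif20b: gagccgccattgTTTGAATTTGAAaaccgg
Kif23: ctgATTGGcctgTTTGAAatgcgccgggcg
Dync1h1: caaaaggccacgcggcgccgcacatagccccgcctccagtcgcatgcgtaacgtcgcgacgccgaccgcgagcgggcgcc
In *Kif11* and *Kif15* the TTTGAA match began 19 bases before the start site, and in *Kif22* 17 bases before it. It lay just past the start site in *Kif23* (base 3), *Kif20b* (bases 8 and 14, 2 matches end to end) and *Kif4* (base 20). *Kif18a* was the mitotic kinesin whose window had no TTTGAA, and *Kif20a* had no window. The 2 transport genes with a match were *Kif1a*, 44 bases before the start, and *Dctn1*, 207 bases before it. No CCAAT match overlapped a TTTGAA match in the stretches shown. A match is a description of the letters in the window and not a measured binding site.

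Depth was 40693854 to 57580110 tags per library. Of 12955 genes tested, 363 (2.8%) were called higher in mutants and 238 (1.84%) lower by edgeR's quasi-likelihood test, where a call means p under 0.01 with a Benjamini-Hochberg adjusted p under 0.1. *Dst* itself, with its tags summed over isoforms, did not check the labels. It had 423 to 473 CPM in WT and 414 to 457 CPM in mutants. Here CPM are tags of the gene scaled to library depth, with TMM factors. The paper reports, by quantitative PCR of heart, lower Dst-b mRNA in mutants with Dst-a mRNA unchanged. Why the summed tags overlapped was not tested. The 7 cardiomyocyte markers summed to 81400 to 84000 CPM in WT and 82100 to 91500 CPM in mutants, with *Actc1* and *Ttn* called higher. The 6 fibroblast markers summed to 1660 to 1840 and 1680 to 1980 CPM, with *Col1a1* called higher. The 3 markers of atrial muscle (*Myl7*, *Sln*, *Myl4*) varied between mice, from 50.4 to 421 summed CPM, with WT replicate 3 and mutant replicate 3 the highest of their genotypes. None of the 5 lymphocyte markers was among the listed genes, and those of Schwann cells and neurons summed to at most 7.70 CPM. Levels of bulk tissue cannot tell fewer cells of a type from less RNA per cell.

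Levels were compared between genes on the deposited RPKM scale, which corrects for transcript length. The most abundant motor genes of the heart were *Dynlrb1*, the roadblock light chain of dynein, with a mean of 170 RPKM over the 6 mice, and *Dynll2*, an LC8 light chain, with 147 RPKM. *Kif1c*, a kinesin-3 that carries vesicles and messenger RNA, followed with 139 RPKM and was by far the most abundant kinesin. It made up 53.0% to 54.0% of the summed *Kif* RPKM in WT hearts and 48.5% to 52.1% in mutant hearts. The dynactin subunits *Dctn2* (89.3 RPKM), *Dctn6* (86.0 RPKM), *Dctn3* (78.0 RPKM) and *Dctn1* (52.4 RPKM) came next. Kinesin-1 was represented by its light chain *Klc1* (43.6 RPKM) and its heavy chain *Kif5b* (39.8 RPKM).

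Some paralogues within a complex were used very unequally, and others were closer in level. *Kif5b* supplied 98.2% to 98.9% of the RPKM of the kinesin-1 heavy chains in every library, and the heavy chains known best from neurons, *Kif5c* and *Kif5a*, averaged 0.312 and 0.279 RPKM. Of the LC8 light chains, *Dynll2* had 7.06 to 9.01 times the RPKM of *Dynll1*. The dynein light intermediate chains were nearly level, with a *Dync1li1* to *Dync1li2* ratio between 0.815 and 1.08. Of the kinesin-1 light chains, *Klc1*, *Klc2* and *Klc4* had 43.6, 31.1 and 23.0 RPKM, and *Klc3* had 1.99 RPKM. The mitotic kinesins were scarce, from 0.118 RPKM for *Kif15* to 2.03 RPKM for *Kif20a*, and together gave 1.22% to 2.35% of the summed *Kif* RPKM. They were not alone at such levels: *Kif26b*, *Kif21b* and *Kif1a*, which are not mitotic kinesins, averaged 0.225, 0.260 and 0.261 RPKM. The median level was 0.421 RPKM for mitotic kinesins, 17.7 RPKM for transport motors and 5.94 RPKM for all tested genes.

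**Figure D1:**
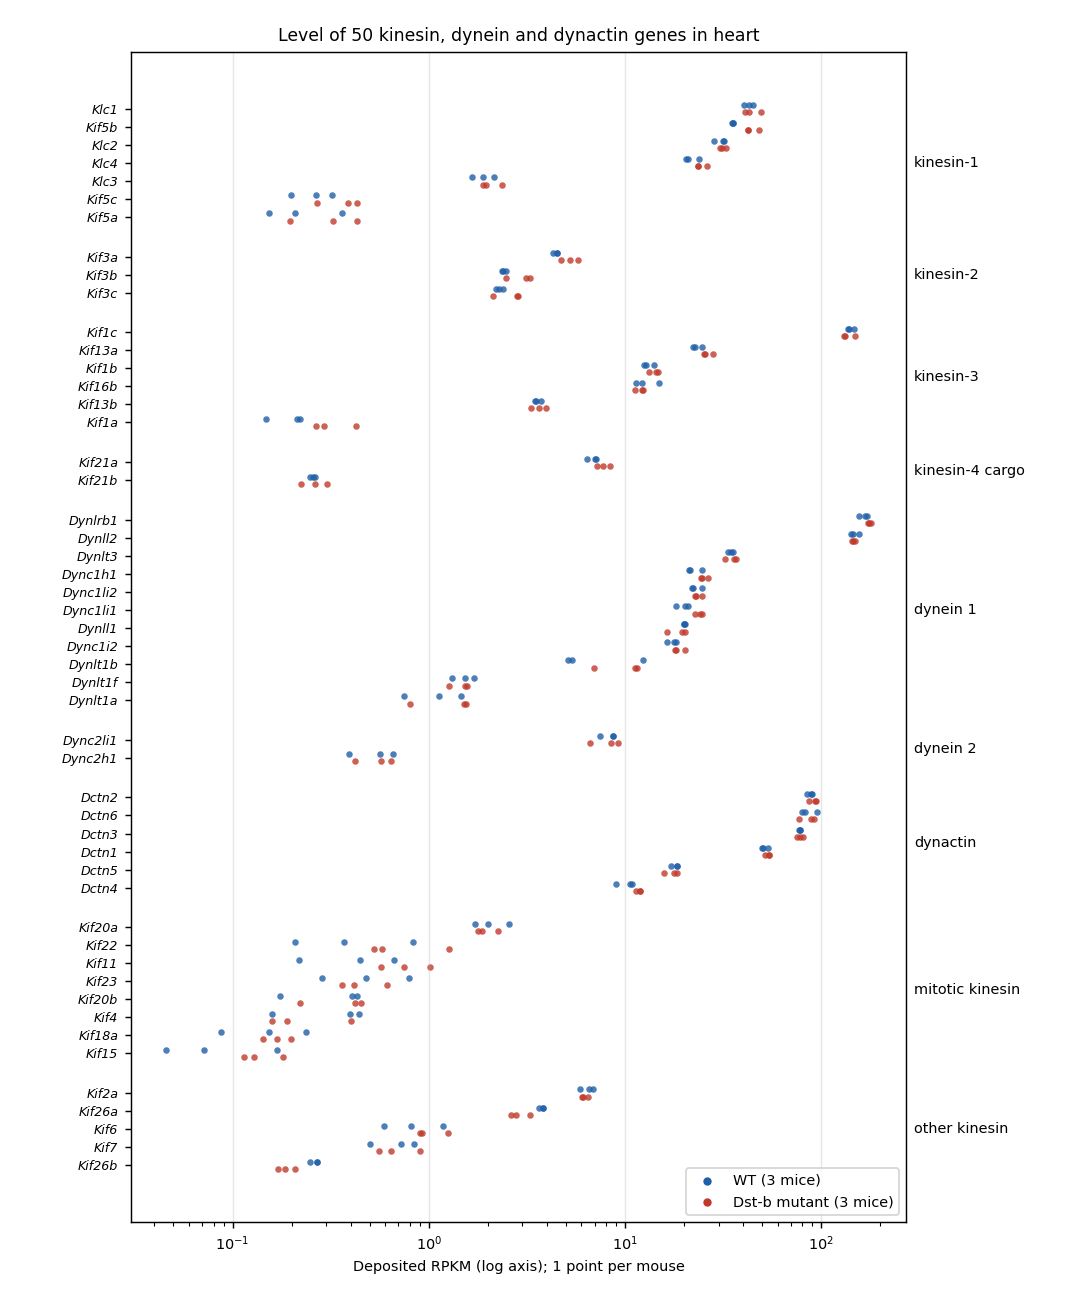
Deposited RPKM (horizontal log axis) of the 50 motor genes, grouped by role and ordered by mean level within a role, with 1 point per mouse (blue WT, red Dst-b mutant, 3 each). Levels ran from 170 RPKM for Dynlrb1 to 0.118 RPKM for Kif15, and 7 of the 8 mitotic kinesins had means under 1 RPKM.

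Between genotypes, 2 of the 50 genes were called: *Kif5b* higher and *Kif26a* lower in mutant hearts. Of all tested genes 4.64% were called in either direction, so the motor genes were not called more often than genes at large. In 8 motor genes all 3 mutant values lay above all 3 WT values (*Kif5b*, *Kif3a*, *Kif3b*, *Kif13a*, *Kif1a*, *Kif21a*, *Dync1li1* and *Dctn4*), and in 2 they lay below (*Kif26a* and *Kif26b*). Over all tested genes, 11.4% were separated with the mutants higher and 10.5% with the mutants lower. All 8 of the first kind were transport motors, which is 21.6% of that class. The median log2 fold change (mutant against WT) was 0.08 for the 37 transport motors, with 27 positive and 10 negative, 0.08 for the 8 mitotic kinesins, with 5 positive and 3 negative, and 0 for all tested genes. Single transport motors ran from -0.12 to 0.75 and mitotic kinesins from -0.42 to 0.78. The mitotic median had no stable direction: it was -0.2225 without WT replicate 4, 0.4013 without WT replicate 1 and -0.2603 with the replicate numbers as a block. In the block fit, WT replicate 4 and mutant replicate 2 have no same-numbered partner and do not bear on the genotype term. The transport median stayed positive but was 0.0432 without WT replicate 4 and 0.0457 without mutant replicate 1.

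Precision differed between the classes. For 32 of 37 transport motors (86.5%) the 95% interval of the fold change lay inside 1.5-fold in either direction and so left out changes larger than that. This held for 1 of 8 mitotic kinesins, whose median standard error was 0.37 on the log2 scale against 0.08 for transport motors. Among all tested genes it held for 88.5% of those with a mean of at least 5 CPM and for 18.5% of those below it. The mitotic kinesins other than *Kif20a* all averaged under 5 CPM, and their intervals left room for changes larger than 1.5-fold.

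**Figure D2:**
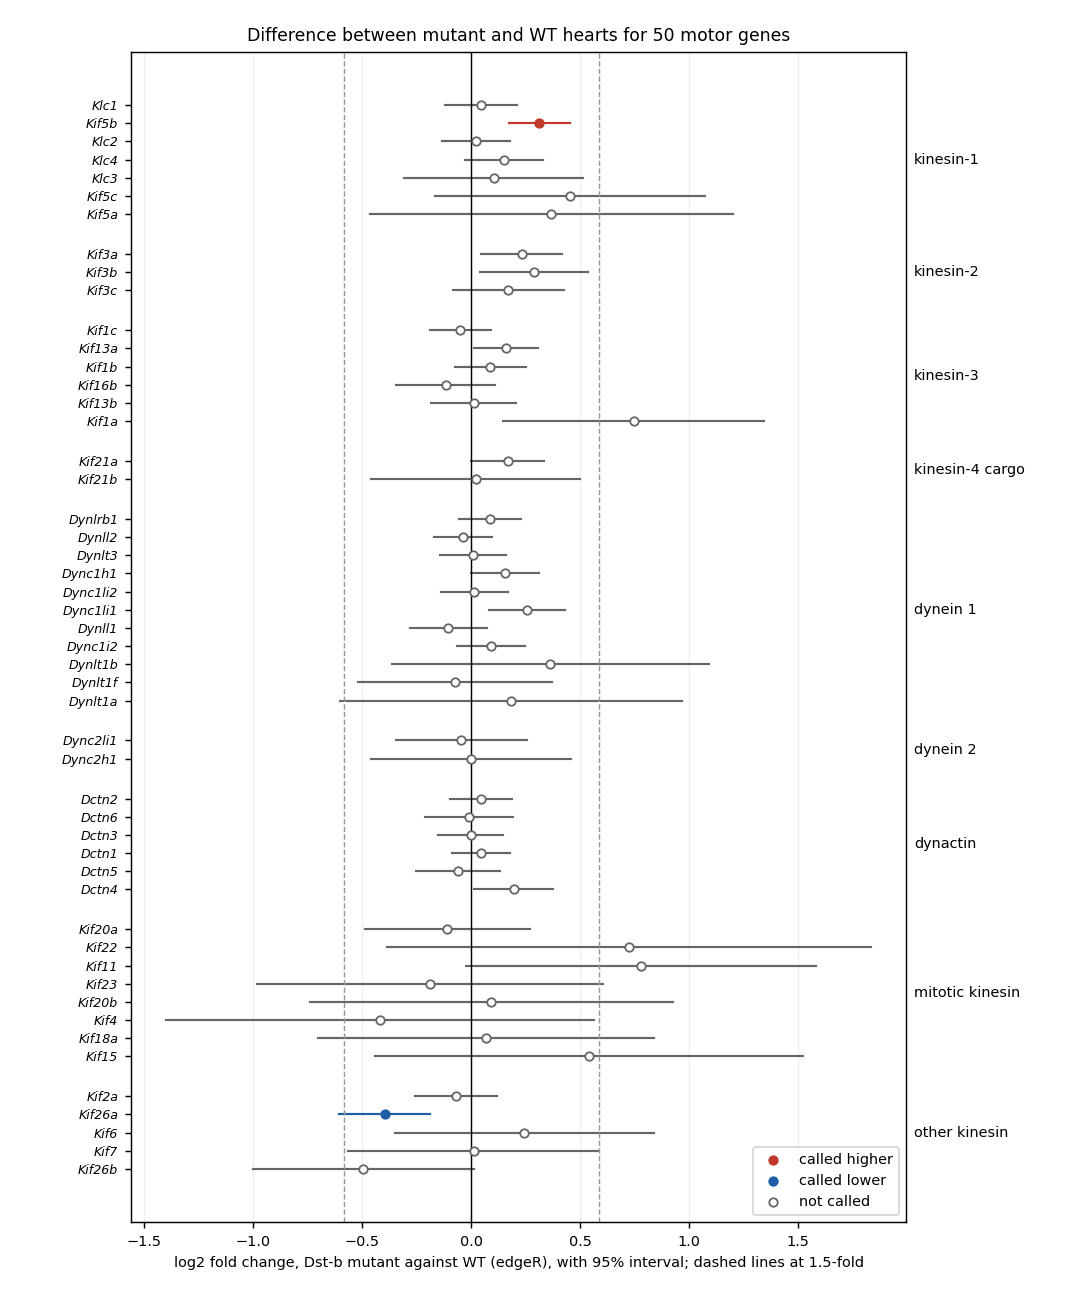
Log2 fold change of each motor gene, Dst-b mutant against WT (horizontal axis), from edgeR's quasi-likelihood fit of 3 mice per genotype, with 95% intervals as bars and dashed lines at 1.5-fold. Kif5b (red) was called higher and Kif26a (blue) lower, and the mitotic kinesins had the widest intervals of the roles shown.

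Kinesin-1, a tetramer of heavy and light chains that carries mitochondria, vesicles and messenger RNA, held the motor gene that was called higher. The paper also lists this gene, *Kif5b*, as upregulated in the mutants from the same libraries, so the call is no independent result. *Kif5b* (Entrez gene 16573) had 233, 228 and 232 CPM in WT replicates 1, 3 and 4 and 309, 272 and 279.9 CPM in mutant replicates 1, 2 and 3. WT hearts agreed within a few CPM, every mutant heart was above them, and mutant replicate 1 was the highest. The log2 fold change was 0.31 (SE 0.063, adjusted p = 0.033, edgeR's quasi-likelihood test), a 1.24-fold difference, with means of 231 ± 2.66 CPM in WT and 287 ± 19.2 CPM in mutants (SD, n = 3 each). Without mutant replicate 1 it was 0.25 and the call was lost (adjusted p = 0.16 in the same edgeR test). It kept the call when any other library was left out. Among the cell-type markers, *Ttn* and *Actc1* of cardiomyocytes (log2 fold changes 0.47 and 0.28) and *Col1a1* of fibroblasts (0.46) were called in the same direction. The lists as a whole were mixed. Of 7 cardiomyocyte markers, 4 had positive and 3 negative fold changes (median 0.07). Of 6 fibroblast markers, 4 were positive and 2 negative (median 0.12). The part of these cell types in the *Kif5b* difference was not tested.

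The 4 light chains bind cargo and hold the motor inactive when it is free, and none of them was called. *Klc1* had 138, 131 and 125 CPM in WT and 130.003, 149 and 129 CPM in mutants, and the genotypes overlapped. Its log2 fold change was 0.05 (95% interval -0.12 to 0.21), and *Klc2* and *Klc4* stood at 0.02 and 0.15. The RPKM ratio of heavy to light chains was 0.364 to 0.376 in WT and 0.409 to 0.471 in mutants, without overlap. This repeats the *Kif5b* values, since *Kif5b* makes up nearly all of the heavy chain. The fold changes of all 7 kinesin-1 genes were positive, with a median of 0.15, but 6 of them were not called. *Klc2*, *Klc3* and *Kif5b* share 13.7%, 28.5% and 3.02% of their exon bases with a gene on the opposite strand (for *Klc3*, the repair helicase *Ercc2*), and whether strand was used in counting is not stated.

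Kinesin-2 is the motor of intraflagellar transport and of some vesicles. None of its 3 listed genes was called by edgeR's quasi-likelihood test, edgeR's exact test or DESeq2. *Kif3a* had 24.9, 25.0 and 23.9 CPM in WT and 31.3, 28.5 and 26.7 CPM in mutants, without overlap. Its log2 fold change was 0.23 (SE 0.084, adjusted p = 0.205, edgeR's quasi-likelihood test). Its partner *Kif3b* was also separated, at 13.4 to 13.99 CPM in WT and 14.3 to 18.3 CPM in mutants, with a log2 fold change of 0.29 and an adjusted p of 0.234 in the same test. *Kif3c*, which pairs with *Kif3a* in neurons, stood at 0.17 and overlapped between genotypes. Antisense genes cover 37.8% of the exon bases of *Kif3c* for the largest alone, so its tags are the least certain of the 3. *Kifap3*, the subunit that completes the trimer, is no member by symbol and had a log2 fold change of 0.09.

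The 6 listed genes of the kinesin-3 family spanned a wide range of levels, from 139 RPKM for *Kif1c* to 0.261 RPKM for *Kif1a*. *Kif1c*, the leading kinesin of the heart, had 983, 970 and 1048 CPM in WT and 923, 1036 and 938 CPM in mutants. The genotypes overlapped, and the log2 fold change of -0.05 had a 95% interval of -0.19 to 0.09. *Kif1a*, known as the carrier of synaptic vesicle precursors, had 1.75, 1.21 and 1.82 CPM in WT and 2.35, 3.43 and 2.23 CPM in mutants. All mutants were above all WT hearts, and the log2 fold change of 0.75 was the largest of the transport motors, but with an SE of 0.27 its adjusted p was 0.204 in edgeR's quasi-likelihood test. *Kif13a*, an endosomal motor, was separated at 156 to 173 CPM in WT and 175 to 192 CPM in mutants, with a log2 fold change of 0.16 (adjusted p = 0.264 in edgeR's quasi-likelihood test). *Kif1b*, which carries mitochondria and vesicles, *Kif13b* and the endosomal *Kif16b* lay between -0.12 and 0.09.

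Of the cargo motors of the kinesin-4 family, *Kif21a* had 43.4, 39.3 and 43.9 CPM in WT and 50.3, 46.8 and 45.2 CPM in mutants. The separation was narrow, with a log2 fold change of 0.17 (adjusted p = 0.303 in edgeR's quasi-likelihood test). *Kif21b* was at 0.02 with a much wider interval, from -0.46 to 0.50.

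**Figure D3:**
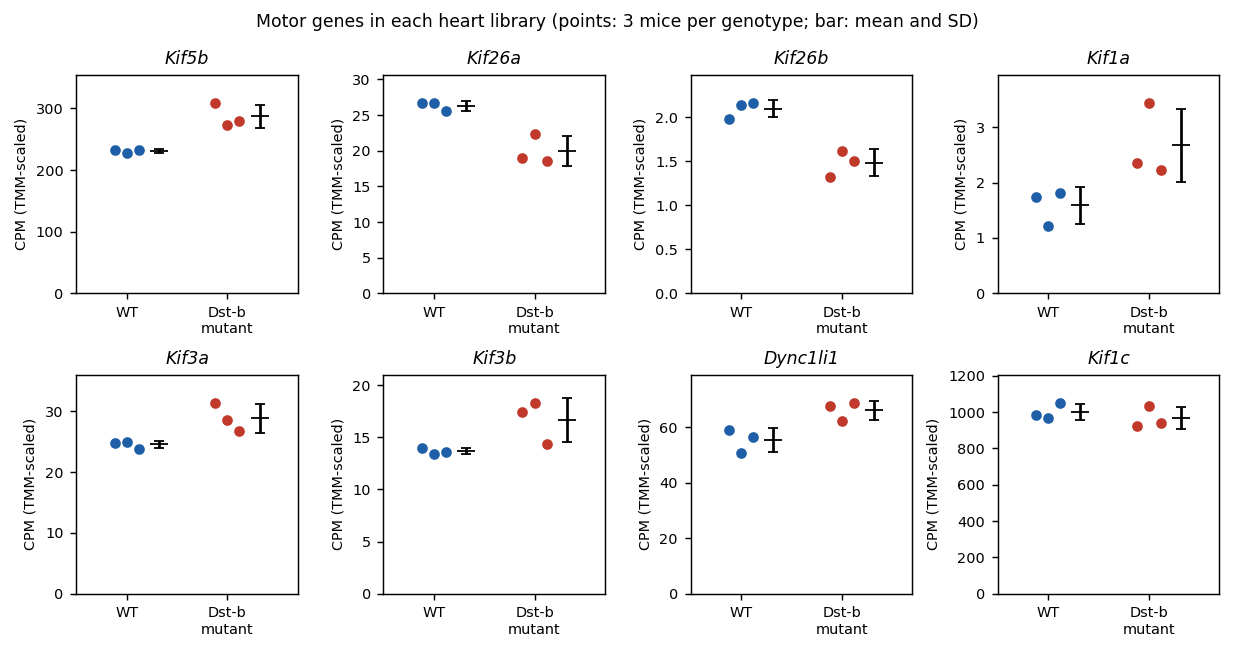
TMM-scaled CPM (vertical axes from 0, each panel with its own scale) of 8 motor genes, 1 point per mouse (blue WT, red Dst-b mutant), with black bars for the mean and SD of 3 mice. The genotypes did not overlap in the first 7 panels, of which Kif5b and Kif26a were called, and they overlapped in Kif1c.

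Cytoplasmic dynein 1 is built on a heavy chain motor with intermediate, light intermediate and light chains, and none of its 11 listed genes was called by edgeR's quasi-likelihood or exact test. In that first test 1 had an unadjusted p under 0.05. *Dync1li1*, a light intermediate chain that binds the activating adaptors, had 59.0, 50.6 and 56.6 CPM in WT and 67.5, 62.2 and 68.5 CPM in mutants. The mutants were all higher, with a log2 fold change of 0.25 (SE 0.079, adjusted p = 0.138, edgeR's quasi-likelihood test). DESeq2 called it at the same thresholds. Its paralogue *Dync1li2* had a log2 fold change of 0.01 (95% interval -0.14 to 0.17), and whether the paralogues differed was not tested.

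The heavy chain *Dync1h1* had 356, 307 and 311 CPM in WT and 346, 374 and 364 CPM in mutants, with WT replicate 1 inside the mutant range. Its log2 fold change was 0.16 (adjusted p = 0.307, edgeR's quasi-likelihood test). The roadblock chain *Dynlrb1* had 108, 115 and 118 CPM in WT and 117, 121 and 123 CPM in mutants, again with overlap, and a log2 fold change of 0.08. *Dync1i2*, *Dynll1*, *Dynll2* and *Dynlt3* lay between -0.11 and 0.09. The Tctex1-type light chains *Dynlt1a*, *Dynlt1b* and *Dynlt1f* are near-identical copies on chromosome 17, and how the counting shared tags between them was not tested. *Dynlt1b* had 3.97, 4.14 and 9.59 CPM in WT, a spread of more than 2-fold. The mutants had 8.68, 8.57 and 5.46 CPM, and the genotypes overlapped. Its log2 fold change of 0.36 (SE 0.33) was the largest of the dynein 1 genes and was not called. In WT hearts *Dynlt1a* had 0.605 to 1.18 CPM and *Dynlt1f* 2.66 to 3.40 CPM, and their log2 fold changes were 0.18 and -0.08.

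Dynein 2 turns intraflagellar transport back towards the cell body, and its 2 listed genes were close to 0 difference. *Dync2li1* had 11.6, 11.6 and 10.005 CPM in WT and 11.1, 12.02 and 8.99 CPM in mutants. The values interleaved, with a log2 fold change of -0.05 (95% interval -0.35 to 0.25). The heavy chain *Dync2h1* averaged 8.20 CPM in both genotypes.

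Dynactin links dynein to cargo and lets it walk far. All 6 listed *Dctn* genes had 95% intervals inside 1.5-fold, and none was called by edgeR's quasi-likelihood test, edgeR's exact test or DESeq2. *Dctn2*, the shoulder subunit dynamitin, had 197, 188 and 199.7 CPM in WT and 202, 188 and 212 CPM in mutants, with a log2 fold change of 0.04 (95% interval -0.10 to 0.18). *Dctn1*, the p150-Glued arm that grips the microtubule, was at 0.04, and *Dctn3*, *Dctn5* and *Dctn6* lay between -0.06 and 0. *Dctn4*, a pointed-end subunit, was the one dynactin gene without overlap, at 53.6 to 64.2 CPM in WT and 66.0 to 71.6 CPM in mutants. Its log2 fold change was 0.19 and its unadjusted p of 0.041 was the only one under 0.05 (adjusted p = 0.274, edgeR's quasi-likelihood test).

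Set side by side, the transport kinesins and their light chains had a median log2 fold change of 0.15 over 18 genes, 16 of them positive. Dynein 1 had a median of 0.08 over 11 genes and dynactin one of 0.02 over 6. These are descriptions, since genes of one complex measured in the same 6 hearts are not independent, and no difference between the groups was tested. An unadjusted p under 0.05 in edgeR's quasi-likelihood test was found for 7 of 37 transport motors (18.9%), all higher in mutants. Over all tested genes the share was 16.5%, but it counts both directions. Of their fold changes, 6477 were positive and 6478 negative. The share with mutants higher alone was not computed, so the 2 percentages cannot be compared directly.

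The motor gene that was called lower belonged to the kinesins outside both classes. *Kif26a* (Entrez gene 668303, chr12:112143974-112181747), an atypical kinesin-11 that lacks motor activity and dampens growth factor signalling, had 26.6, 26.7 and 25.5 CPM in WT. The mutants had 18.9, 22.4 and 18.5 CPM, all below WT, with mutant replicate 2 the nearest to it. The log2 fold change was -0.40 (SE 0.094, adjusted p = 0.062, edgeR's quasi-likelihood test), with means of 26.3 ± 0.648 and 20.0 ± 2.13 CPM (SD, n = 3 each). The call rested on all of the libraries but 2: it was lost without mutant replicate 1, mutant replicate 3, WT replicate 1 or WT replicate 3, with adjusted p of 0.249, 0.167, 0.151 and 0.14, while the log2 fold change stayed between -0.49 and -0.35.

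Its paralogue *Kif26b* (chr1:178529125-178932857), a scarcer gene at 0.225 RPKM against 3.34 RPKM, was separated in the same direction. It had 1.98, 2.14 and 2.16 CPM in WT and 1.32, 1.62 and 1.51 CPM in mutants, with a log2 fold change of -0.50 (SE 0.23) that was not called (adjusted p = 0.313, edgeR's quasi-likelihood test). Markers of mural cells, the pericytes and smooth muscle around vessels, moved the same way in these libraries. They summed to 540 to 601 CPM in WT and 402 to 492 CPM in mutants, and 4 of 5 were called lower. Their log2 fold changes were -0.49 for *Rgs5*, -0.45 for *Kcnj8*, -0.43 for *Notch3* and -0.32 for *Pdgfrb*, with *Myh11* at -0.05. Endothelial markers summed to 947 to 1090 CPM in WT and 842 to 968 CPM in mutants, with *Tie1* and *Egfl7* of 5 called lower. None of these defining markers was at 0 in any library. The part of these cell types in the *Kif26a* and *Kif26b* differences was not tested.

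The other 3 genes of this set did not separate. *Kif2a*, which takes microtubule ends apart and was the most abundant of the 5 at 6.33 RPKM, had 29.9, 25.4 and 28.4 CPM in WT and 27.3, 25.8 and 26.5 CPM in mutants. Its log2 fold change was -0.07 (95% interval -0.26 to 0.12). *Kif7*, the ciliary regulator of Hedgehog signalling, was at 0.01, and *Kif6* was at 0.24 with an SE of 0.27. Opposite-strand exons cover 13.2% of the exon bases of *Kif2a* (*Dimt1*) and 19.1% of those of *Kif7*, and none of those of *Kif26a*.

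The mitotic kinesins were found in every heart at low levels, and none of the 8 was called by edgeR's quasi-likelihood test, edgeR's exact test or DESeq2, nor had any an unadjusted p under 0.05. *Kif20a*, a kinesin of cytokinesis, had 10.04, 7.86 and 6.74 CPM in WT and 6.805, 8.62 and 7.40 CPM in mutants. Its log2 fold change was -0.11 (95% interval -0.49 to 0.27). Of its exon bases, 31.8% also lie in exons of *Cdc23* on the opposite strand, so its tags, the most of any mitotic kinesin, are uncertain if strand was not used in counting. *Kif11*, the motor that pushes spindle poles apart, had 3.24, 1.06 and 2.16 CPM in WT and 3.54, 4.82 and 2.82 CPM in mutants. It had the largest log2 fold change of all members, 0.78, with an SE of 0.36 and an adjusted p of 0.316 in edgeR's quasi-likelihood test, and the genotypes overlapped. Leaving out a library moved it between 0.46 and 1.204.

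The remaining mitotic kinesins went in both directions with wide intervals. *Kif22*, which pushes chromosome arms outwards, was at 0.72 and *Kif15*, which backs up *Kif11*, at 0.54. *Kif20b*, of cytokinesis, and *Kif18a*, which dampens chromosome oscillations, were at 0.09 and 0.07. *Kif23*, a subunit of the centralspindlin complex, was at -0.19 and *Kif4*, the chromokinesin that sets midzone length, at -0.42. Exons of *Pdzd11* on the opposite strand cover 15.1% of the exon bases of *Kif4*. Leaving out a library moved *Kif22* between 0.21 and 1.46, *Kif15* between 0.21 and 1.27 and *Kif4* between -0.95 and -0.15, so the order of these genes by fold change was not stable. No mitotic kinesin separated the genotypes.

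What did recur across these genes was the mouse, a pattern noted after the values were seen. WT replicate 1 had the highest CPM of the WT hearts in 8 of 8 mitotic kinesins, and mutant replicate 2 the highest of the mutant hearts in 7 of 8. Both held together in 87.5% of mitotic kinesins, in 16.2% of transport motors and in 12.2% of the 4245 tested genes with a mean under 10 CPM. The summed level was 27.2 CPM in WT replicate 1 against 17.3 and 14.7 CPM in the other WT hearts, and 26.4 CPM in mutant replicate 2 against 19.4 and 17.8 CPM in the other mutants. Markers of cycling cells (*Mki67*, *Top2a*, *Cdk1*, *Ccna2*, *Ccnb1*, *Prc1* and *Tpx2*, 7 of 11 on the list) peaked in the same mice in 7 of 7 cases. They summed to 41.2, 19.2 and 17.9 CPM in WT replicates 1, 3 and 4 and to 26.1, 37.8 and 20.9 CPM in mutant replicates 1, 2 and 3. None of the 6 that were abundant enough to be tested was called between genotypes by edgeR's quasi-likelihood test, edgeR's exact test or DESeq2, and none had an unadjusted p under 0.05. Those same libraries were also the deepest, with 55296384 and 57580110 tags, and the part of depth was not tested.

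**Figure D4:**
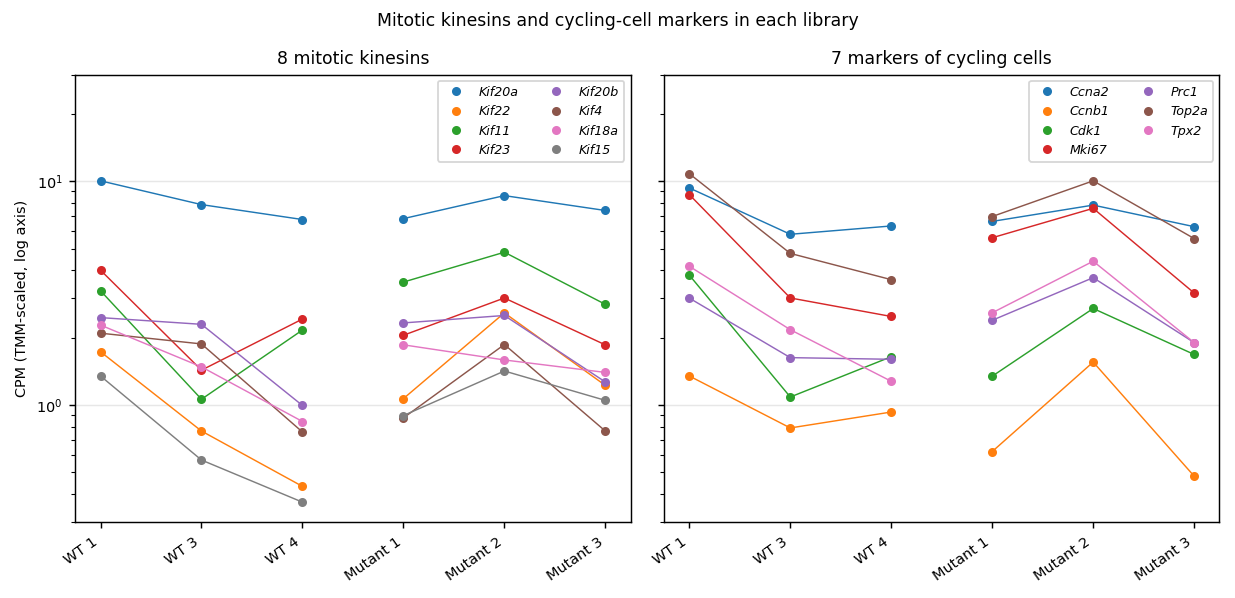
TMM-scaled CPM (vertical log axis) of the 8 mitotic kinesins (left) and 7 markers of cycling cells (right) in each library, with 1 colour per gene and lines that join a gene's points within a genotype and stand for no order. WT replicate 1 was the highest WT heart in all 8 kinesins and all 7 markers, and mutant replicate 2 the highest mutant heart in 7 of 8 and 7 of 7.

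Genes that work with the motors but fall outside the symbol rule were counted in the same way. Of 33 adaptors and regulators, 29 were listed and none was called by any of the 3 tests, with 2 at an unadjusted p under 0.05 and log2 fold changes from -0.34 (*Mapk8ip1*) to 0.48 (*Hap1*) around a median of 0.03. The most abundant per length were *Rhot2*, a mitochondrial anchor of motors, at 77.0 RPKM, and *Fez2*, a kinesin adaptor, at 54.5 RPKM. *Rhot2* had a log2 fold change of -0.13 and *Fez2* one of 0.12. The 6 genes of the dynactin rod and its barbed-end cap were not called either and none had an unadjusted p under 0.05 (median 0.03), with *Capzb* at 0.11 and *Capza2* at -0.03. Of 9 other motor genes, 7 were listed and none was called by any of the 3 tests or reached an unadjusted p of 0.05. They were led by *Kifc3*, a minus-end kinesin, with 36.4 RPKM and a log2 fold change of -0.10, and by *Tctex1d2*, a dynein 2 light chain, with 6.88 RPKM and 0.22. Of 19 dyneins of motile cilia, 1 was listed, at 0.599 RPKM.

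Among 18 listed partners of mitotic kinesins at the spindle and midzone, of 23 on the list, 1 was called by edgeR's quasi-likelihood test. Others were added by edgeR's exact test (*Zwilch*, lower) and by DESeq2 (*Zwilch*, lower, and *Clasp2*, higher). *Cenpf*, a large microtubule-binding protein of kinetochores and the nuclear envelope, had 21.6, 33.0 and 30.4 CPM in WT and 90.3, 81.2 and 99.99 CPM in mutants. It was higher in every mutant heart, with a log2 fold change of 1.68. The paper reports *Cenpf* as upregulated, from the same libraries and by quantitative PCR. The mouse order of *Cenpf* was not that of the mitotic kinesins, since WT replicate 1 was its lowest library. *Zwilch*, a kinetochore protein, had 1.51 to 2.62 CPM in WT and 0.284 to 1.19 CPM in mutants, without overlap, and a log2 fold change of -1.32. The median log2 fold change of the 18 genes was 0.14.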

How the data were processed

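Each of the 6 deposited tables gives 13003 genes with an Entrez identifier, estimated tag counts and RPKM values, which the authors made by mapping reads of 150 nt pairs to GRCm38/mm10 with OLego and counting with Quantas. The labels speak of CPM, but the deposited tag values are estimated counts (8.45% to 13.8% of genes of a library not whole, any decimal part), and they were rounded. The deposited RPKM were used only to compare levels between genes.

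Genes with at least 1 CPM in at least 3 of 6 libraries (12955) were tested, genotype the only term, with TMM scaling and the two-sided quasi-likelihood test of edgeR 4.0.16 (limma 3.58.1, R 4.3.3), adjusted by Benjamini-Hochberg over all of them and called at p under 0.01 and adjusted p under 0.1. The biological coefficient of variation was 12.3%. The fits were tested on simulated data. Alternatives were DESeq2 1.42.0 (median-of-ratios), median-of-ratios scaling in edgeR, edgeR's exact test, no filter, a mean of at least 5 CPM, adjusted p under 0.05, a replicate block, leaving out each library, RPKM ratios, and transport kinesins alone.

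Python 3.11.15 (pandas 2.3.3, numpy 2.4.6) was used for tables. Positions and promoter windows came from RefSeq (GRCm38.p6) and exon overlaps from GENCODE M21. Of the symbols with an assigned role, 18 were not among the listed genes and are not analysed here. It is not stated if tags are single reads or pairs. The paper's methods and the labels name different library kits (TruSeq and NEBNext Ultra II Directional).

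Values per library are given for members called, separated between genotypes with a log2 fold change of at least 0.3, named by the study, or most abundant in their role. They are also given for others chosen after their values were seen (*Dync1li1*, *Dync1h1*, *Dynlt1b*, *Kif11*). *Kif3b*, *Kif13a* and *Dctn4*, chosen in the same way, are given by their range in each genotype, and *Dynlt1a* and *Dynlt1f* by their range in WT. Outside lists are given by at most 4 called genes, or the 2 most abundant. The members, roles, lists and motifs were chosen with earlier results of these data known. P values set the genotype difference against the spread between 3 hearts per genotype, estimated with information shared across genes.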

Additional observations from a re-analysis of the deposited data

How the results depend on the processing

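*Kif5b* was called under every alternative tried except leaving out mutant replicate 1. Motor genes called higher numbered 1 in the analysis reported, 2 with DESeq2 (*Dync1li1* added) and 0 to 2 when a library was left out, the 0 without mutant replicate 1. Motor genes called lower numbered 1, but 0 at an adjusted p under 0.05 and 0 to 1 when a library was left out. Over all genes the 601 calls became 1028 with DESeq2, 304 at an adjusted p under 0.05 and 163 to 519 when a library was left out, lowest without mutant replicate 1. Replicate numbers 1 and 3 occur in both genotypes, but deviations of same-numbered hearts from their group means did not correlate over genes (r = 0.0072 and -0.049), so the numbers were not taken as pairs. With the replicate block, which leaves 1 residual degree of freedom, 966 genes were called, with 4 motor genes higher (*Dync1li1*, *Dynlt1b*, *Kif5a*, *Kif5b*) and 2 lower (*Kif26a*, *Kif4*). That fit compares only replicates 1 and 3 of each genotype, since WT replicate 4 and mutant replicate 2 have no partner. The transport median of 0.08 (0.0847) was 0.0469 at a mean of at least 5 CPM, 0.1549 for kinesins and light chains alone and 0.0432 to 0.0823 when a library was left out. The mitotic median of 0.0785 was -0.2603 with the block and -0.2225 to 0.4013 when a library was left out. *Klc1* (0.0456) turned to -0.0573 with the block. Leaving out a library moved it between -0.0291 (without mutant replicate 2) and 0.0823, *Dync2li1* between -0.1452 and 0.0633 (without mutant replicate 3) and *Kif20a* between -0.2358 and 0.0621 (without WT replicate 1), none of them called. The cause of these changes was not tested.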
